A study of Mus musculus with 18 samples.

Results

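The glycolysis enzymes described here are 10 genes of the lower part of the pathway, Aldoa, Tpi1, Gapdh, Pgk1, Pgam1, Eno1, Eno2, Pkm, Ldha and Ldhb. They were taken as a list of symbols and joined to the Ensembl identifiers of the files, where all 10 were found among 38561 genes counted. All 10 were also among the 17545 genes with at least 10 reads in at least 1 library, which were the genes tested. The list was drawn up with 1 result in view, a lower Gapdh level in the frontal cortex of Pcm1-/- mice. Values of that contrast are therefore given as a description, with no test.

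Libraries of 3 brain regions (striatum, hippocampus, frontal cortex) were made from adult C57 Bl6J mice, with 3 WT and 3 Pcm1-/- mice (labelled PCM1 KO), 1 library per mouse and region, 18 in all. No group received a treatment according to the labels. Pcm1 encodes a scaffold protein of the centriolar satellites, and the Pcm1-/- mice carry a gene trap in it that came from 1 embryonic stem cell line. By the study's methods the trap was backcrossed to C57BL/6J for at least 3 generations, and WT littermates were the controls. Each mouse of either genotype gave all 3 regions, so libraries of different regions are not independent of each other. Values below are listed by replicate number. By the submitters' sample names these numbers follow the mice except in WT striatum, where replicates 1, 2 and 3 came from the mice of replicates 3, 1 and 2 of the other WT regions.

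Glycolysis splits glucose into pyruvate. Aldolase cuts the six-carbon sugar, triosephosphate isomerase keeps its triose products in 1 pool, Gapdh oxidises the triose and makes NADH, and Pgk1 and Pkm are the steps that give ATP. Lactate dehydrogenase then converts pyruvate and lactate into each other, and in the brain lactate is known as a fuel that passes between astrocytes and neurons. Eno2 is known as the neuronal enolase and Eno1 as the broadly expressed one.

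Each library held 24950537 to 33405081 reads on genes (median 27844740.5), and 86.8% to 89.2% of the reads entering the counting were assigned to a gene. Pcm1 itself had 313 to 520 reads in Pcm1-/- libraries, against 3425 to 4919 in those of WT mice. The summed level of 8 striatum markers was 6985 to 8951 CPM (counts of a gene scaled to equal library totals, after TMM factors) in the striatum and at most 291.2 CPM elsewhere. The summed level of 8 hippocampus markers was 1102 to 1389 CPM in the hippocampus and at most 631.4 CPM elsewhere. Choroid plexus markers summed to 5963 CPM in 1 WT striatum library and to at most 164.1 CPM in the other 5 striatum libraries. In 1 mouse of each genotype, reads on Y-linked genes numbered 2988 or more in every region, and in the other mice at most 5.

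The genes lie on 6 chromosomes, all as protein-coding genes of GENCODE on GRCm38. Gapdh (ENSMUSG00000057666) is at chr6:125161715-125166467, with Tpi1 (ENSMUSG00000023456) at chr6:124810586-124814296, Eno2 (ENSMUSG00000004267) at chr6:124760053-124769673 and Ldhb (ENSMUSG00000030246) at chr6:142490249-142507957, all 4 on the minus strand. Aldoa (ENSMUSG00000030695) is at chr7:126795234-126800751 on the minus strand and Ldha (ENSMUSG00000063229) at chr7:46841475-46855627 on the plus strand. The others are on the plus strand, Pgk1 (ENSMUSG00000062070) at chrX:106187100-106203699, Pgam1 (ENSMUSG00000011752) at chr19:41911923-41918660, Eno1 (ENSMUSG00000063524) at chr4:150236721-150248879 and Pkm (ENSMUSG00000032294) at chr9:59656368-59679375. Counts cover all exons of a gene.

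Only reads with a single place in the genome had been counted, and Gapdh, Pgk1, Pgam1 and Eno1 have processed copies scattered through the genome. The following stretches of 60 bases from the GENCODE transcripts show how little separates Gapdh from them. All are written 5′ to 3′ in the sense of the transcript, and capitals mark the bases that differ from Gapdh. The Gapdh stretch lies in coding sequence at chr6:125162980-125163039 on the minus strand of GRCm38, and the stretch named Peli2 belongs to a transcript annotated under that gene at chr14:48227530-48227589 on the plus strand.
Gapdh: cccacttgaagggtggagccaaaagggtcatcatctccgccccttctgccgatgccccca
Peli2: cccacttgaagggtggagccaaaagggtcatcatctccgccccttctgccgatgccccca
Gm12419: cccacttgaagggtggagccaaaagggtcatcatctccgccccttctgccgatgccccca
3000002C10Rik: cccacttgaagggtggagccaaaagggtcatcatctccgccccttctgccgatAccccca
Gm9522: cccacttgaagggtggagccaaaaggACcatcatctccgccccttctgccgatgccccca
Gm5069: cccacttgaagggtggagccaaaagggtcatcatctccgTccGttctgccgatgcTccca
Of 180 annotated copies of Gapdh, 42 were identical to it over these 60 bases, 92 had 1 to 5 differing bases, 21 had 6 to 15 and 25 had more than 15. A read lying inside the stretch could thus be placed at many genes equally well.

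Enolase showed both cases. The Eno1 stretch at chr4:150246570-150246629 on the plus strand differs by 1 base from Gm4735, an annotated copy on chromosome 2, and by 18 bases from the same stretch of Eno2, at chr6:124763865-124763924 on the minus strand. Capitals mark the bases that differ from Eno1.
Eno1: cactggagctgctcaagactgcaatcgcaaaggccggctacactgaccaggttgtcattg
Gm4735: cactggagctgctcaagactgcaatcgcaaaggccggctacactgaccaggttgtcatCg
Eno2: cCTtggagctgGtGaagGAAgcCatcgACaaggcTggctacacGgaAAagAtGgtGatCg
Eno2 had no annotated copy, where a copy is a gene that matches at least 200 bases of the transcript at 90% identity or more.

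Cut into windows of 50 bases, the main Gapdh transcript had 17.5% of its windows in no other gene. The share was 27.8% for Eno1, 32.0% for Pgk1 and 58.5% for Pgam1. Pkm had 65.6%, Ldhb 72.99%, Ldha 82.9%, Aldoa 86.1%, Tpi1 92.5% and Eno2 99.7%. The 4 members with the lowest shares were also the 4 with the fewest reads per kilobase. Gapdh had 55 to 136 reads per library, Pgk1 132 to 409, Pgam1 170 to 565 and Eno1 1098 to 3600. Aldoa had 29743 to 43992 reads per library, Eno2 19197 to 34263, Pkm 14583 to 22392 and Tpi1 7885 to 12899.

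**Figure D1:**
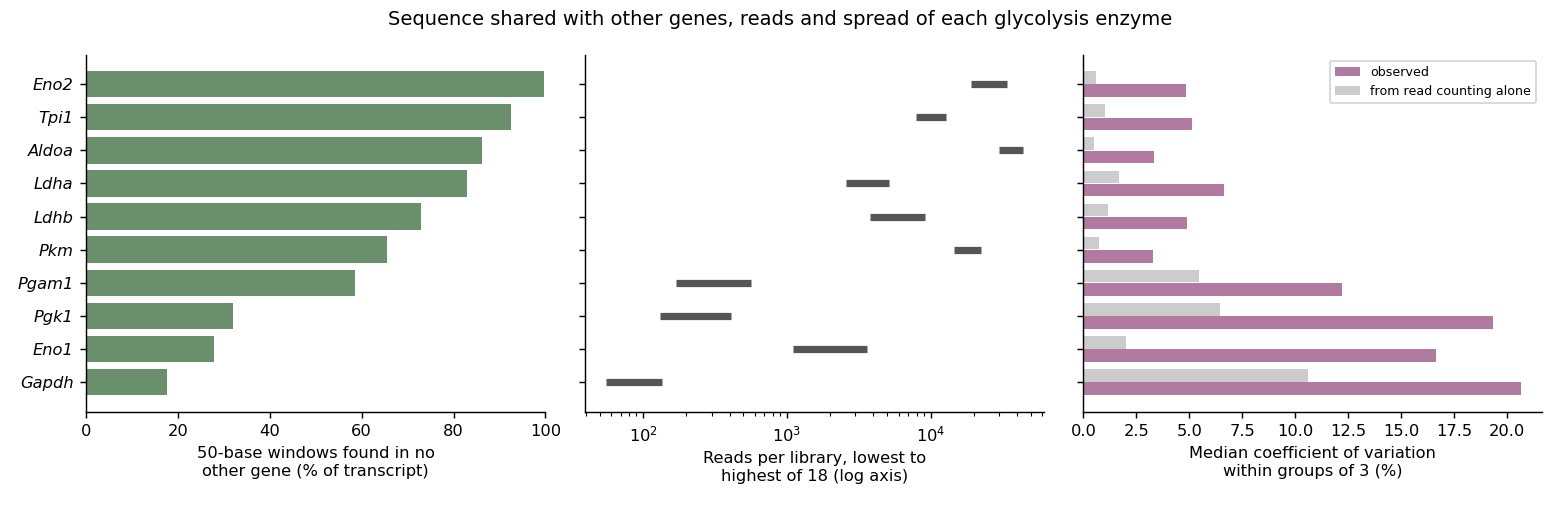
Share of 50-base windows of the main transcript found in no other gene (left, %), lowest to highest reads per library over 18 libraries (middle, log axis) and median coefficient of variation within groups of 3 libraries (right, %), with the part that read counting alone would give in grey, for each of the 10 genes. Gapdh, at 17.5% unique windows and 55 to 136 reads, had the highest variation, 20.6%.

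The sequence where a Gapdh read could be placed uniquely lay largely outside its coding transcripts. Its merged exons cover 4133 bases, of which 2282 (55.2%) belong only to transcripts that are not protein coding. Among the 3621 bases covered by a unique window, 62.5% lay only in such transcripts, the longest of them a retained intron transcript of 3289 bases. The corresponding share was 54.6% for Eno1, 36.1% for Tpi1 and 34.1% for Pgk1, and from 0% to 28.5% for the other 6. The files give 1 count per gene, so which of these bases the reads covered was not tested. Gapdh overlaps Iffo1, Aldoa overlaps Fam57b and Tpi1 overlaps Spsb2 on the opposite strand, and the strand setting of the counting is not given in the sources used here.

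Reads on the annotated copies outnumbered those on Gapdh itself. Over the 18 libraries, 1554 reads were counted on Gapdh and 18689 on its copies other than Peli2, where 152 of the 180 copies, Peli2 among them, had a row in the files. Peli2, an E3 ubiquitin ligase gene with 1 transcript that matches Gapdh, had a further 25963 reads, and how many of them came from that transcript was not tested. Gapdh held 4.77% to 12.3% (median 7.69%) of the reads on itself and its copies without Peli2. Its highest share was in WT frontal cortex replicate 1 and its lowest in Pcm1-/- hippocampus replicate 1.

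**Figure D2:**
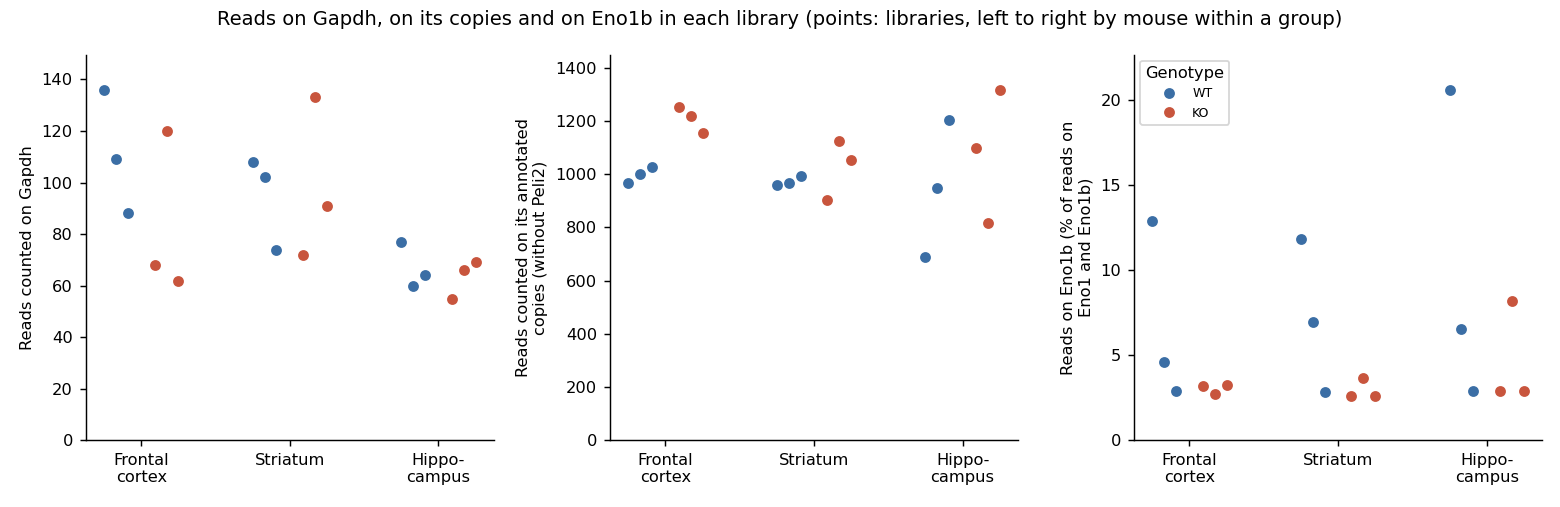
Reads counted on Gapdh (left), on its annotated copies without Peli2 (middle) and on Eno1b as a share of reads on Eno1 and Eno1b (right, %) in each library by region, with WT in blue and Pcm1-/- in red and mice in the same order in each region. Gapdh reads ranged from 55 to 136, copy reads from 690 to 1317, and the Eno1b share from 2.59% to 20.6% with its highest value in each region in the same WT mouse.

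Levels were compared between genes per kilobase of merged exon. In WT frontal cortex, Aldoa had the highest level, 448.0 ± 14.3 CPM per kb (SD, n = 3), followed by Eno2 at 214.5 ± 7.78, Ldhb at 163.5 ± 9.63, Tpi1 at 141.9 ± 7.39 and Pkm at 127.5 ± 1.95. Ldha had 46.2 ± 3.32 CPM per kb, Eno1 16.98 ± 4.198, Pgam1 7.31 ± 0.619, Pgk1 4.66 ± 0.329 and Gapdh 0.980 ± 0.185. These means lay further apart than the SDs of neighbours in the order. Aldoa and Eno2 stood first and second in all 6 groups, and Ldha, Eno1, Pgam1, Pgk1 and Gapdh took the last 5 places in this order in all 6. Ldhb, Tpi1 and Pkm exchanged places between regions. The place of Ldhb also depended on the length used, since per kilobase of coding sequence it stood below Tpi1 and Pkm in all 6 groups, while Aldoa, Eno2 and the last 5 kept their places. In hippocampus libraries of WT mice they lay at 123.8 ± 10.1, 127.9 ± 13.1 and 118.6 ± 6.03 CPM per kb, within their SDs of each other. All levels count unique reads only, and for Gapdh, Eno1, Pgk1 and Pgam1, with the lowest shares of unique windows, they are no measure of the transcripts. Of the other 6 all but Eno2 have annotated copies too, from 1 for Ldhb and 2 for Tpi1 to 6 for Aldoa, 9 for Pkm and 13 for Ldha.

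**Figure D3:**
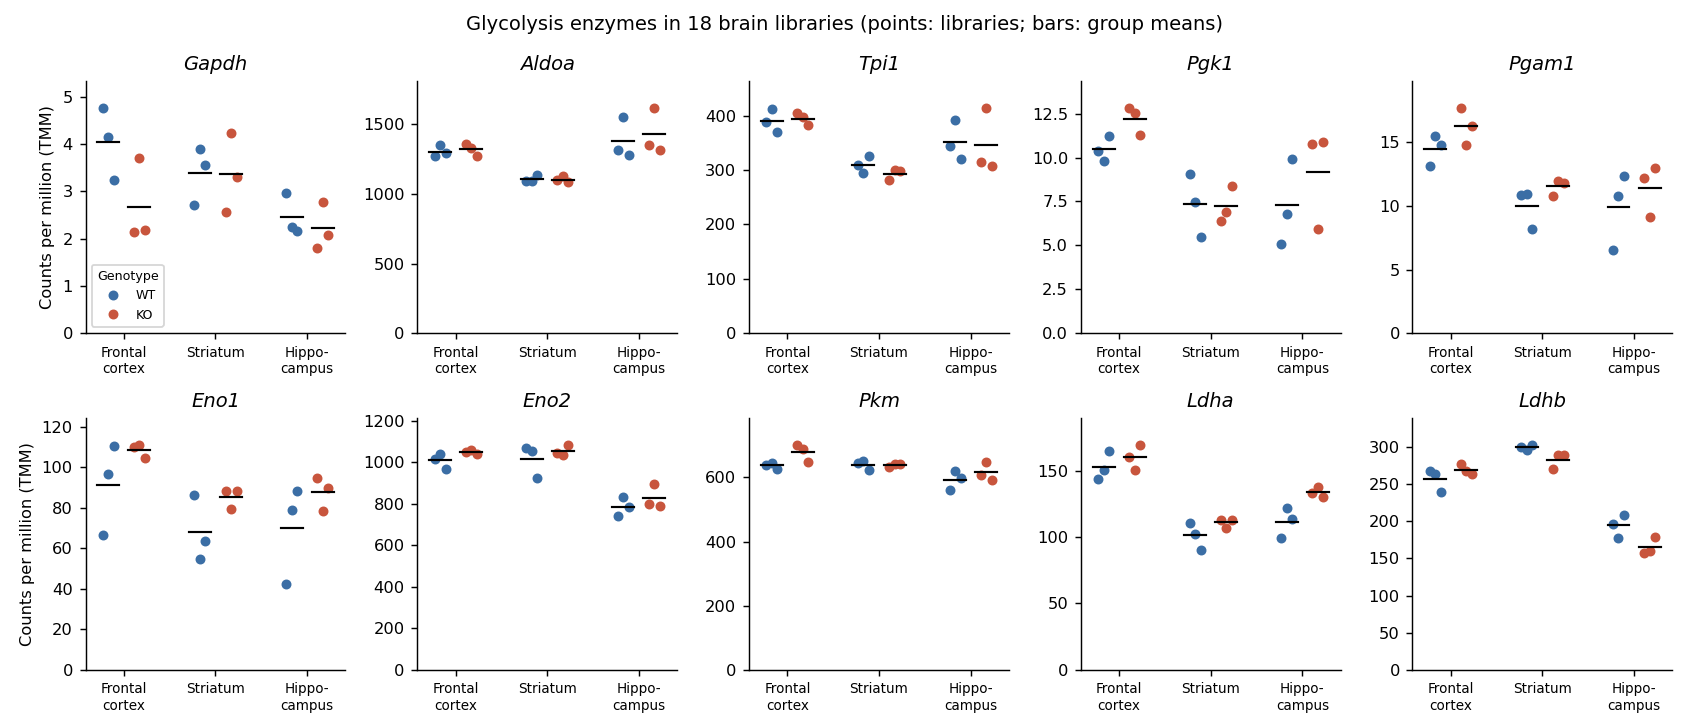
Level of each glycolysis enzyme in CPM (TMM scaled; each panel has its own axis from 0) in the 18 libraries by region, with WT in blue, Pcm1-/- in red and bars at the group means. Ldhb is lowest in the hippocampus, Eno2 likewise, and Ldha is highest in the frontal cortex in both genotypes.

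The spread between mice differed among the 10 genes. The median coefficient of variation within groups was 20.6% for Gapdh, 19.4% for Pgk1, 16.7% for Eno1 and 12.2% for Pgam1. It was 3.28% for Pkm, 3.34% for Aldoa, 4.83% for Eno2, 4.88% for Ldhb, 5.11% for Tpi1 and 6.62% for Ldha, against a median of 9.78% over all genes tested. Counting of reads alone would give 10.6% for Gapdh, 6.46% for Pgk1, 5.44% for Pgam1 and 2.01% for Eno1. Gapdh, often used as a constant reference in tissue RNA, thus had the highest value of the 10 by this measure. It also had the largest part from read counting, so its place above Pgk1 may rest on its few reads. As a spread of unique reads only, it is no measure of how constant the Gapdh transcript is.

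Part of the spread followed the mouse. The WT mouse of frontal cortex replicate 1 had the highest WT Gapdh level in each region, 4.76 CPM in frontal cortex, 3.89 in striatum and 2.97 in hippocampus. Among Pcm1-/- mice the mouse of replicate 2, which had reads on Y-linked genes, was highest in each region, with 3.71, 4.23 and 2.77 CPM. Eno1 showed the reverse in the first of these mice. It had the lowest WT Eno1 level in each region, 66.6 CPM in frontal cortex, 54.7 in striatum and 42.3 in hippocampus, where the other WT libraries had 63.8 to 110.8 CPM. Eno1b, a copy 99.5% identical to Eno1 over 1736 bases, took 12.9%, 11.8% and 20.6% of the reads on both genes in that mouse. The share was 4.62% to 6.97% in the second WT mouse and 2.85% to 2.88% in the third, and 2.59% to 8.18% in Pcm1-/- libraries. After subtraction of group means, log2 CPM of Eno1 and Eno1b correlated at −0.91 over 18 libraries, which share mice, lanes and scaling.

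In the frontal cortex Gapdh was lower in Pcm1-/- mice and the other 9 enzymes were level or slightly higher. Gapdh had 4.76, 4.15 and 3.24 CPM (136, 109 and 88 reads) in the WT libraries and 2.13, 3.71 and 2.18 CPM (68, 120 and 62 reads) in the Pcm1-/- libraries. The second mutant library lay above the third WT library, so the groups overlapped. The log2 fold change was −0.60 (SE 0.24), or 34.1% lower. Leaving out 1 library at a time gave −0.92 without the second mutant library and −0.46 without the first.

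The other members gave no sign of the same size. Pgk1, the first ATP-forming step, had 10.4, 9.78 and 11.2 CPM in WT and 12.8, 12.5 and 11.3 CPM in Pcm1-/- libraries, without overlap, at a log2 fold change of 0.22 (SE 0.09). Pkm, the last step to pyruvate, had 638.6, 646.5 and 627.1 CPM in WT and 702.0, 689.0 and 648.0 in mutants, also without overlap, at 0.09 (SE 0.05). Eno1 differed by 0.24 (SE 0.15), Pgam1, which shifts the phosphate before the enolase step, by 0.16 (SE 0.10), and the other 5 by 0.01 to 0.06. Without 1 library at a time these ranges were 0.18 to 0.27 for Pgk1, 0.06 to 0.41 for Eno1 and 0.10 to 0.22 for Pgam1. The median of the 10 was 0.06 and that of all 17545 genes −0.0066. Over all genes, 306 (1.74% of those tested) had an adjusted p under 0.05 in edgeR, and no call is given for the members, since the list was chosen on this contrast. Groups without overlap numbered 2 of 10 beside 21.3% of all genes, from which for the same reason nothing is read.

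With reads on annotated copies added to each member, the Gapdh difference was −0.048 with Peli2 and 0.032 without it. The summed copies without Peli2 had 33.9, 38.1 and 37.9 CPM in WT and 39.3, 37.6 and 40.5 CPM in mutant frontal cortex, and the groups overlapped. With copies added Eno1 was 0.20 and Pgam1 0.16, and no member other than Gapdh changed direction. Markers of other cells also had other mean levels here, with no oligodendrocyte, microglia, red blood cell or endothelial marker called in edgeR. All 8 oligodendrocyte markers (summed level 1998 to 2668 CPM in WT and 1788 to 1897 in mutants), all 8 microglia markers (429.1 to 566.4 and 374.0 to 426.2) and all 5 red blood cell markers (109.3 to 175.2 and 35.8 to 79.0) had lower mean levels in mutants, as had 6 of 8 endothelial markers (220.7 to 304.5 and 214.7 to 226.7). Of 8 striatum markers 6 were higher, 2 of them called where 1.74% of all genes were. Their sums of 205.0 to 227.1 CPM in WT and 259.9 to 291.2 in mutants did not overlap. The cell and striatum markers were given as values. The part of these markers in the differences above was not tested. In tissue, fewer cells of a type and less RNA per cell cannot be told apart.

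**Figure D4:**
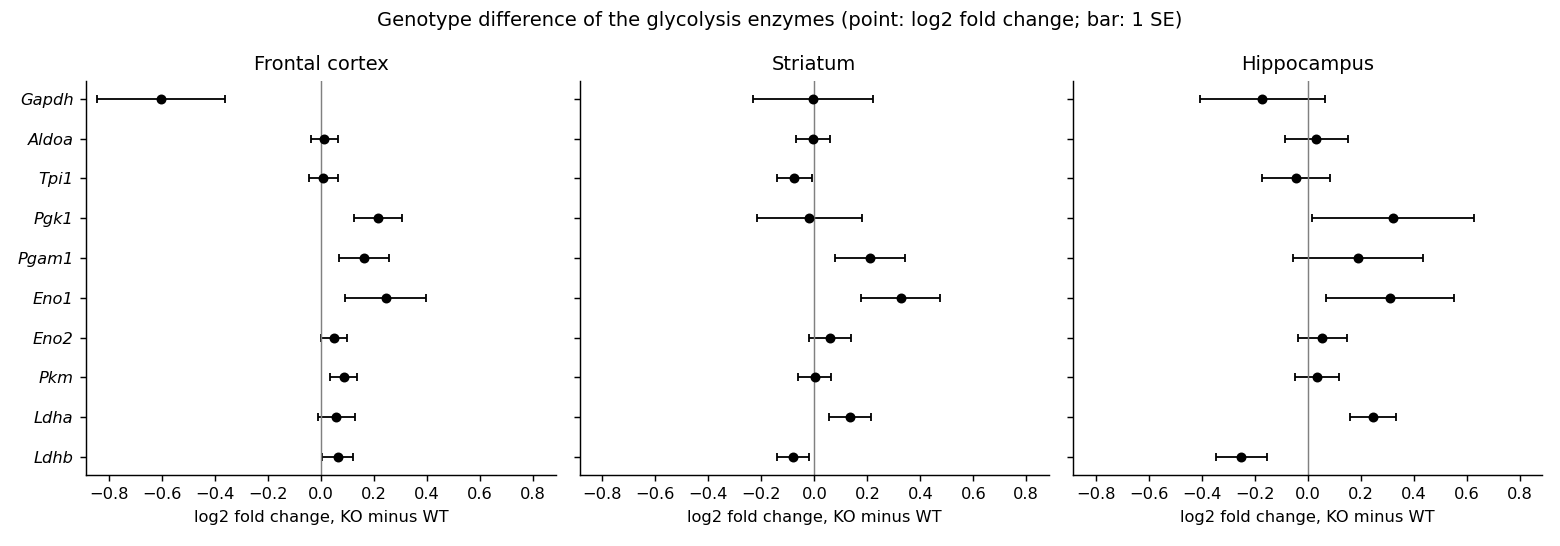
Log2 fold change between Pcm1-/- (KO) and WT mice with 1 SE for the 10 genes by region (n = 3 against 3 in each). Gapdh lies at −0.60 in frontal cortex, −0.01 in striatum and −0.17 in hippocampus.

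In the striatum no glycolysis enzyme was called at an adjusted p under 0.05 (edgeR quasi-likelihood test, Benjamini-Hochberg over 17545 genes), where 0.0285% of all genes were. Unadjusted p was under 0.05 for none of the 10, beside 13.5% of all genes. DESeq2 also called none of them, where it called 3.84% of the genes it tested. Gapdh had 2.72, 3.89 and 3.56 CPM in WT and 2.57, 4.23 and 3.29 CPM in Pcm1-/- libraries, and the mutant range contained the WT range. Its log2 fold change was −0.01 (SE 0.23, adjusted p = 0.998). Eno1 had the lowest adjusted p, with 86.3, 54.7 and 63.8 CPM in WT and 88.5, 79.7 and 88.3 in mutants, at 0.33 (SE 0.15, adjusted p = 0.388 in edgeR). Ldhb alone had groups without overlap, with 300.6, 296.2 and 303.2 CPM in WT and 270.2, 289.6 and 288.7 CPM in mutants, at −0.08 (SE 0.06, adjusted p = 0.599), where 19.0% of all genes had no overlap. All WT striatum libraries came from 1 lane and the mutant libraries from other lanes, so that effects of lane and of genotype on the striatum values cannot be told apart. Markers of other cells also had lower levels in mutant striatum, with none called in edgeR. They were all 8 oligodendrocyte markers (summed level 9655 to 9854 CPM in WT and 5855 to 9497 in mutants), all 8 microglia markers (568.7 to 827.0 and 512.9 to 591.0) and all 5 red blood cell markers (71.8 to 226.7 and 43.9 to 92.2). All 5 choroid plexus markers were lower too, with the 1 high WT library described at the start. All 8 striatum markers were higher in mutants, with sums of 6985 to 8033 CPM in WT and 8318 to 8951 in mutants that did not overlap. Their part in the values above was not tested.

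In the hippocampus the 2 lactate dehydrogenase subunits moved in opposite directions without passing the test. Ldha, whose subunit favours the making of lactate, had 99, 121.7 and 113.3 CPM in WT and 133.5, 137.3 and 130.2 in Pcm1-/- libraries. Every mutant library lay above every WT library, at 0.25 (SE 0.09, adjusted p = 0.442 in edgeR, and 0.128 to 0.919 over all alternatives). Ldhb, whose subunit favours the use of lactate, had 196.9, 177.4 and 208.9 CPM in WT and 157.7, 160.4 and 178.6 in mutants, at −0.25 (SE 0.10, adjusted p = 0.462 in edgeR, and 0.112 to 0.919 over all alternatives). These groups overlapped by 1 library. The ratio of Ldhb to Ldha CPM, looked at after these values were seen and so given without a test, was 1.99, 1.46 and 1.84 in WT hippocampus and 1.18, 1.17 and 1.37 in mutant hippocampus.

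The ratio overlapped between genotypes in the frontal cortex, at 1.87, 1.75 and 1.45 in WT and 1.74, 1.78 and 1.55 in mutants. In the striatum it was 2.71, 2.89 and 3.36 in WT and 2.39, 2.70 and 2.56 in mutants, and the lowest WT and the highest mutant value were close to each other. Hippocampal Gapdh had 2.97, 2.25 and 2.15 CPM in WT and 1.81, 2.77 and 2.07 in mutants, at −0.17 (SE 0.24, adjusted p = 0.825). Pgk1 (0.32, SE 0.31) and Eno1 (0.31, SE 0.24) had adjusted p of 0.744 and 0.690 in the same edgeR fit. Leaving out 1 library gave −0.35 to −0.014 for Gapdh, 0.12 to 0.61 for Pgk1 and 0.052 to 0.51 for Eno1. None of the 10 was called, where 0.0171% of all genes were, 2 of 10 had an unadjusted p under 0.05 beside 9.89% of all genes, and 1 had groups without overlap against 17.1% of all genes. DESeq2 called none of the 10, where it called 1.77% of the genes it tested. Markers of other cells were again lower in mutants, with none called in edgeR. All 8 oligodendrocyte markers summed to 5092 to 10140 CPM in WT and 3843 to 6316 in mutant hippocampus, all 8 microglia markers to 445.9 to 665.7 and 417.6 to 485.1, and all 5 red blood cell markers to 125.3 to 216.0 and 33.3 to 69.8. Of 8 endothelial markers 7 were lower (189.7 to 262.6 and 169.0 to 181.8), and all 5 choroid plexus markers were (2135 to 6254 and 219.7 to 4135). Their part in the Ldha, Ldhb and other values above was not tested.

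The genotype difference was compared between the striatum and the hippocampus, the regions not used to choose the genes. Lane and genotype coincide in the striatum, so their effects cannot be told apart in this comparison either. Log2 differences of the effects ran from −0.33 for Pgk1 to 0.19 for Ldhb, none had an unadjusted p under 0.05 (3.47% of all genes did), and adjusted p was 1 for each, where 0.00% of all genes were called in the edgeR fit. DESeq2 called none of the 10 either, where it called 0.196% of the genes it tested.

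Between regions some of the enzymes passed the test. Of the 9 members other than Gapdh, 6 had a lower mean level in WT striatum and 8 in WT hippocampus than in WT frontal cortex, with medians of −0.33 and −0.39 on the log2 scale where all genes had medians of 0.02 and −0.01. Ldha was lower in both regions, Ldhb and Eno2 were lower in the hippocampus, Tpi1 was lower in the striatum, and Ldhb was higher in the striatum. Gapdh levels in these contrasts rest on the frontal cortex values that chose it and are given without a test. The 3 regional contrasts of a genotype share libraries, and region differences in Pcm1-/- mice come from other animals than those in WT mice. All WT striatum libraries came from the same lane and those of the other WT regions from several, and lanes also differed between regions in mutants. The part of lane in the regional differences was not tested.

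Ldha had 143.4, 150.2 and 164.9 CPM in frontal cortex, 110.7, 102.6 and 90.1 in striatum, and 99, 121.7 and 113.3 in hippocampus libraries of WT mice. Every frontal cortex library lay above every library of the other regions. The log2 fold change of WT striatum was −0.59 (SE 0.10, adjusted p = 0.00109) and that of WT hippocampus −0.46 (SE 0.10, adjusted p = 0.00747) in edgeR. In Pcm1-/- mice, with 160.1, 150.2 and 169.5 CPM in frontal cortex, 112.9, 107.1 and 112.9 in striatum and 133.5, 137.3 and 130.2 in hippocampus, it was −0.52 (SE 0.06, adjusted p = 2.446e-05) and −0.26 (SE 0.06, adjusted p = 0.00407) in edgeR.

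Among the 9 members other than Gapdh, Ldhb had the largest regional log2 difference in each genotype with all libraries in the fit. Without 1 library Pgk1 reached −0.81 for WT hippocampus and −0.87 for mutant striatum against frontal cortex, and Ldhb at most 0.70 and 0.84 for striatum over hippocampus. For Ldhb, WT mice had 267.5, 263.1 and 239.4 CPM in frontal cortex, 300.6, 296.2 and 303.2 in striatum and 196.9, 177.4 and 208.9 in hippocampus. The 3 regions did not overlap. The striatum was 1.55-fold above the hippocampus in WT mice (log2 0.63, SE 0.08, adjusted p = 0.000150) and 1.72-fold in Pcm1-/- mice (0.78, SE 0.06, adjusted p = 2.667e-06) in edgeR. The hippocampus was below the frontal cortex, with a log2 difference of −0.40 (SE 0.08, adjusted p = 0.00357) in WT and −0.71 (SE 0.06, adjusted p = 1.128e-05) in mutants in the same edgeR fits. The striatum was above the frontal cortex in WT mice (0.23, SE 0.08, adjusted p = 0.0402), a call that was lost without any 1 of the 6 libraries (adjusted p of 0.0600 to 0.139 in edgeR). In mutants this difference was 0.07 (SE 0.06, adjusted p = 0.357 in edgeR). Whether the region differences of Ldhb differ between genotypes was tested only for striatum against hippocampus, where the interaction had an adjusted p of 1 in edgeR.

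Eno2, the neuronal enolase, had 739.2, 834.1 and 784.8 CPM in WT hippocampus against 1016, 1042 and 969.7 in cortical and 1068, 1053 and 926.2 in striatal libraries. Its hippocampal level lay below both other regions without overlap. The differences were −0.36 (SE 0.09, adjusted p = 0.0116, and 0.0548 without WT frontal cortex replicate 2) to the frontal cortex and 0.38 (SE 0.09, adjusted p = 0.00915) for striatum over hippocampus in edgeR. Mutants gave −0.35 (SE 0.07, adjusted p = 0.00197) and 0.36 (SE 0.07, adjusted p = 0.00129) in edgeR. Striatum and frontal cortex differed by 0.01 (SE 0.09 in WT and 0.07 in mutants, adjusted p = 0.933 and 0.886 in edgeR). Summed neuron markers were 9876 to 10920 CPM in WT frontal cortex, 4967 to 5188 in WT striatum and 6861 to 8317 in WT hippocampus. Single markers did not all share this order. In WT striatum against hippocampus 2 of 8 were higher and 6 lower, and in WT hippocampus against frontal cortex 1 was higher and 7 lower. Their part in the Eno2 differences was not tested.

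Tpi1 and Aldoa, the triose steps, had their lowest mean level in the striatum in both genotypes, and not every difference passed the test. Tpi1 had 389.4, 411.6 and 370.9 CPM in WT frontal cortex and 309.7, 294.5 and 325.5 in WT striatum, at −0.33 (SE 0.09, adjusted p = 0.0128 in edgeR). Mutants, with 404.4, 397.7 and 382.8 against 281.6, 300.7 and 297.8 CPM, gave −0.42 (SE 0.10, adjusted p = 0.00554 in edgeR). The groups did not overlap in either genotype, but the WT call was lost without WT striatum replicate 2 (adjusted p = 0.0556) or WT frontal cortex replicate 2 (0.0559) in edgeR. Tpi1 in WT striatum against WT hippocampus was −0.18 (adjusted p = 0.169 in edgeR), with overlapping groups. For Tpi1 the difference of mutant hippocampus to mutant frontal cortex was −0.20 (SE 0.10, adjusted p = 0.159), with an adjusted p of 0.000472 without mutant hippocampus replicate 2 in edgeR. Striatum against hippocampus in mutants was −0.23 (adjusted p = 0.102, and 0.0396 without mutant hippocampus replicate 3 in edgeR). Aldoa had 1093, 1094 and 1140 CPM in WT striatum and 1314, 1550 and 1277 in WT hippocampus, at −0.31 (SE 0.09, adjusted p = 0.0305 in edgeR), and −0.36 (SE 0.08, adjusted p = 0.00512) in mutants. Against the frontal cortex, Aldoa was −0.23 in WT striatum (SE 0.09, adjusted p = 0.0723) and −0.26 in mutant striatum (SE 0.08, adjusted p = 0.0259) in edgeR. The WT difference passed with DESeq2 (adjusted p = 0.0172) and in 1 edgeR fit of all 18 libraries (0.0307), and its adjusted p ran from 0.0172 to 0.196 over all alternatives. The Aldoa calls of WT striatum against hippocampus and of mutant striatum against frontal cortex did not hold without single libraries. The first was lost without WT striatum replicate 1 or 2 or WT hippocampus replicate 2 (adjusted p from 0.0766 to 0.0952), and the second without mutant striatum replicate 1 or 3 or mutant frontal cortex replicate 1 or 2 (adjusted p from 0.0563 to 0.0894 in edgeR).

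Pgk1, Pgam1 and Eno1 had lower mean levels outside the frontal cortex in both genotypes, with wider errors in WT mice. In mutants the log2 difference of striatum to frontal cortex was −0.75 for Pgk1 (SE 0.20, adjusted p = 0.00837), −0.49 for Pgam1 (SE 0.12, adjusted p = 0.00629) and −0.34 for Eno1 (SE 0.07, adjusted p = 0.00201) in edgeR. That of mutant hippocampus to mutant frontal cortex was −0.41 for Pgk1 (SE 0.20, adjusted p = 0.124), −0.51 for Pgam1 (SE 0.12, adjusted p = 0.00707) and −0.31 for Eno1 (SE 0.07, adjusted p = 0.00501) in edgeR. Both Eno1 calls were lost when all 18 libraries shared 1 fit (adjusted p = 0.205 and 0.298). In WT mice the same differences were −0.51, −0.53 and −0.42, with SEs of 0.24, 0.21 and 0.28, and none was called (adjusted p = 0.120, 0.0702 and 0.259 in edgeR). With the mouse as a block, which takes out the level of each animal, Pgk1 (−0.53, adjusted p = 0.0362) and Eno1 (−0.41, adjusted p = 0.0151) were called in WT striatum too. Over all alternatives adjusted p ran from 0.0362 to 0.310 for Pgk1, from 0.025 to 0.188 for Pgam1 and from 0.0151 to 0.553 for Eno1 in edgeR and DESeq2. Pgam1 passed there with DESeq2 (adjusted p = 0.0413) and in 1 edgeR fit of all 18 libraries (0.025). For WT hippocampus against frontal cortex none of the 3 was called without a block (−0.52, −0.55 and −0.39, adjusted p = 0.133, 0.08 and 0.327 in edgeR). Leaving out 1 library gave −0.81 to −0.32, −0.73 to −0.32 and −0.58 to −0.13. The mouse block called Pgk1 (−0.56, adjusted p = 0.0376), Pgam1 (−0.57, adjusted p = 0.0496) and Eno1 (−0.42, adjusted p = 0.0184) in this contrast. Adjusted p ran from 0.0277 to 0.348, 0.0291 to 0.195 and 0.0184 to 0.741 over all alternatives. Pgk1 and Pgam1 also passed there without WT hippocampus replicate 3 (adjusted p = 0.0277 and 0.0371 in edgeR). Pgk1 differed between mutant striatum and hippocampus by −0.35 (adjusted p = 0.192), and by more without mutant hippocampus replicate 2 (adjusted p = 0.00238 in edgeR). These 3 genes had the fewest reads of the tested 9 and the most shared sequence.

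Pkm, the main pyruvate kinase of brain, varied little between regions. The largest of its 3 regional log2 differences was 0.11 in size in WT and 0.15 in Pcm1-/- mice, below that of each other member in both genotypes. Its WT means were 637.4 ± 9.76 CPM in frontal cortex, 640.1 ± 15.4 in striatum and 593.4 ± 30.1 in hippocampus (SD, n = 3 each). No regional contrast of Pkm was called in either genotype by edgeR (adjusted p = 0.0819 to 0.941). Mutant hippocampus against frontal cortex (−0.15, SE 0.06) passed with DESeq2 (adjusted p = 0.0216) and without mutant hippocampus replicate 2 (adjusted p = 0.016 in edgeR).

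**Figure D5:**
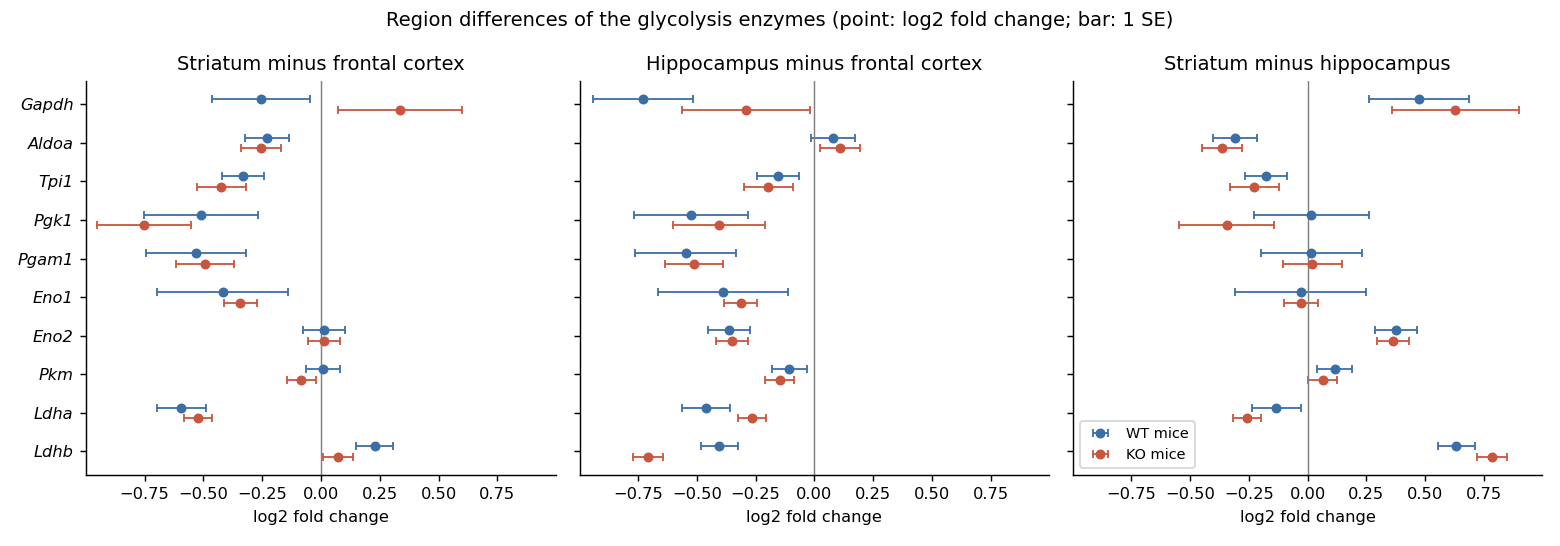
Log2 fold change between regions with 1 SE for the 10 genes, in WT mice (blue) and Pcm1-/- mice (red), n = 3 libraries per region and genotype. Ldhb reaches 0.63 in WT and 0.78 in Pcm1-/- mice for striatum over hippocampus, and Ldha −0.59 and −0.52 for striatum against frontal cortex.

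Counted over the 9 members other than Gapdh, WT striatum against frontal cortex gave 1 higher and 2 lower at an adjusted p under 0.05, where 20.6% of all genes were called higher and 20.9% lower (41.5% in all). WT hippocampus against frontal cortex gave 3 lower and 0 higher (15.3% and 14.5% of all genes, 29.8% in all), and WT striatum against hippocampus 2 higher and 1 lower (14.4% and 14.8%, 29.2% in all). In Pcm1-/- mice striatum against frontal cortex gave 6 lower and 0 higher (27.1% and 27.2% of all genes, 54.3% in all). Mutant hippocampus against frontal cortex gave 5 lower and 0 higher (21.2% and 20.2%, 41.5% in all), and mutant striatum against hippocampus 2 higher and 2 lower (21.9% and 23.1%, 45.0% in all). With the mouse as a block the members called rose from 3 to 5 of 9 in WT striatum against frontal cortex (48.1% of all genes) and from 3 to 6 of 9 in WT hippocampus against frontal cortex (37.0%). Groups without overlap numbered 6 of these 9 in WT striatum against frontal cortex (54.9% of all genes), 5 in WT hippocampus against frontal cortex (44.4%) and 4 in WT striatum against hippocampus (41.4%). In Pcm1-/- mice they numbered 7 (65.2%), 7 (51.5%) and 5 (52.7%). The call count of WT striatum against frontal cortex fell from 3 to 1 without WT striatum replicate 2 or without WT frontal cortex replicate 2.

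Gapdh itself had log2 differences to WT frontal cortex of −0.73 (SE 0.21) in WT hippocampus and −0.25 (SE 0.21) in WT striatum, as values without a test. In Pcm1-/- mice the same differences were −0.29 (SE 0.27) and 0.34 (SE 0.26). Leaving out 1 library gave −0.88 to −0.59 in WT hippocampus, −0.39 to −0.12 in WT striatum, −0.47 to 0.024 in mutant hippocampus and 0.13 to 0.65 in mutant striatum. With reads on copies and Peli2 added, the differences to frontal cortex were 0.28 in WT hippocampus, 0.78 in WT striatum, 0.30 in mutant hippocampus and 0.88 in mutant striatum, so that those with a negative value changed direction. With copies other than Peli2 added they were −0.15, −0.08, −0.11 and −0.11, and that of mutant striatum changed direction. Striatum against hippocampus compares levels that do not rest on frontal cortex libraries, although the fits used those libraries too to estimate the spread. The differences were 0.47 (SE 0.21, adjusted p = 0.128) in WT and 0.63 (SE 0.27, adjusted p = 0.0832) in mutants by edgeR. With the mouse as a block these were 0.47 (adjusted p = 0.0313) and 0.61 (adjusted p = 0.00737), and over all alternatives adjusted p ran from 0.000107 to 0.715 and from 4.54e-05 to 0.947. In mutants it was 0.0404 without hippocampus replicate 2 in edgeR. With reads on copies without Peli2 added they were 0.069 and 0.0074 (adjusted p = 0.715 and 0.947). With Peli2 as well they were 0.50 and 0.57, and Peli2 itself had 2070 to 2541 reads in striatum libraries, 979 to 1462 in hippocampus libraries and 679 to 883 in frontal cortex libraries.

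Oligodendrocyte markers moved with region and astrocyte markers overlapped between regions. Oligodendrocyte markers summed to 1998 to 2668 CPM in WT frontal cortex, 9655 to 9854 in WT striatum and 5092 to 10140 in WT hippocampus, and astrocyte markers to 7540 to 8689, 6442 to 7834 and 7051 to 8067. Their part in the regional differences of the enzymes was not tested.

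Of 9 genes of the upper steps of glycolysis, which trap and phosphorylate glucose, 5 were lower and none was higher in WT striatum than in frontal cortex, and 4 were lower and none higher in WT hippocampus, at an adjusted p under 0.05 in edgeR, where 41.5% and 29.8% of all genes were called. Hk1, the main brain hexokinase, had 271.1 ± 4.02 CPM in WT striatum, 418.0 ± 42.6 in WT hippocampus and 514.0 ± 5.34 in WT frontal cortex (SD, n = 3 each), at −0.92 (SE 0.08, adjusted p = 1.208e-05) and −0.30 (SE 0.08, adjusted p = 0.0197) in edgeR. The phosphofructokinase subunits differed from each other. Against frontal cortex, Pfkl was −0.67 in WT striatum (adjusted p = 0.00156) and 0.25 in WT hippocampus (adjusted p = 0.154), Pfkp was −0.36 and −0.68 (adjusted p = 0.00345 and 0.000132), and Pfkm −0.25 and −0.41 (adjusted p = 0.0189 and 0.00206) in edgeR. Gpi1, which turns glucose 6-phosphate into fructose 6-phosphate, was level, at −0.02 and 0.01 (adjusted p = 0.819 and 0.909 in edgeR). Hk2 had 5.46 ± 0.950 CPM in WT frontal cortex and was not called in either WT contrast (0.13 and 0.22, adjusted p = 0.688 and 0.526 in edgeR). The largest difference of the list was that of Hkdc1, a hexokinase-like gene, at −5.12 and −2.92 (adjusted p = 2.79e-06 and 9.80e-05 in edgeR).

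Of 11 other isozymes of the members' own steps, 7 were tested. Against frontal cortex 2 were called higher and 2 lower in WT striatum, where 41.5% of all genes were called in edgeR. In WT hippocampus 1 was called higher and 0 lower, where 29.8% of all genes were called. Aldoc, the aldolase typical of astrocytes, had 851.1 ± 68.9 CPM in WT frontal cortex, 729.0 ± 55.0 in WT striatum and 723.0 ± 8.31 in WT hippocampus, at −0.22 and −0.24 (adjusted p = 0.0704 and 0.0683 in edgeR). In mutants against WT it was −0.21 for striatum and −0.24 for hippocampus (adjusted p = 0.317 and 0.460 in edgeR). Bpgm, which makes 2,3-bisphosphoglycerate, was higher in WT striatum (0.43, adjusted p = 0.00142) and WT hippocampus (0.29, adjusted p = 0.0197) than in frontal cortex, Pgam2 was higher in the striatum (0.84, adjusted p = 0.00934) and Eno3 lower there (−0.76, adjusted p = 0.0469) in edgeR. No gene of either list was called between genotypes in the striatum or the hippocampus.

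The promoters of the lactate dehydrogenase genes, of which Ldha was lower and Ldhb higher in WT striatum than in WT frontal cortex, are shown as the 250 bases before a RefSeq start (GRCm38.p6), 5′ to 3′ in the direction of the gene. Ldha lies at chr7:46845554-46845803 on the plus strand and Ldhb at chr6:142507958-142508207 on the minus strand. Capitals mark ACGTG on either strand, the core of the sites bound by hypoxia-inducible factors and part of the E-box CACGTG, in which the matches of both strands overlap.
Ldha: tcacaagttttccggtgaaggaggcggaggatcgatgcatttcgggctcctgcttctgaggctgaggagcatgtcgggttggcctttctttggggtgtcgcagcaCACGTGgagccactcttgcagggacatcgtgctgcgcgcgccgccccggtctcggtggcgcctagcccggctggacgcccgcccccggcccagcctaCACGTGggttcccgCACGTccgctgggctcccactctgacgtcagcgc
Ldhb: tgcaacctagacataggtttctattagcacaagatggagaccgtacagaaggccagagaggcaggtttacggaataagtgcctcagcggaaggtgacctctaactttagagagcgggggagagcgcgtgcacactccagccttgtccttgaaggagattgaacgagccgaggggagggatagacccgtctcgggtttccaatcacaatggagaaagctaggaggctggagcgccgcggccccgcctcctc
This Ldha window held 5 matches at 3 places and the Ldhb window 0. It is the first of 2 Ldha starts in the table and lies inside the GENCODE span of the gene, and the window of the other Ldha start held 0 matches. All 10 members had a promoter in the table, 16 in all, of which 6, from Aldoa, Pgk1, Pgam1, Pkm and Ldha, held the motif, against 16.6% of 32851 promoters of the same length. A match is a sequence description only.

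Likeness to Gapdh was measured over the 18 libraries. Among 12869 genes with a mean log2 CPM of at least 1, the highest Pearson correlations with Gapdh were those of Meg3 (0.93), A330023F24Rik (0.92), Mirg (0.92), Snhg20 (0.92) and Akap8l (0.92). Of the members, Ldhb came nearest at 0.58 (rank 541), followed by Eno2 at 0.51 (rank 961), and Aldoa was furthest at −0.34 (rank 10481). With the mean of each group subtracted, the nearest genes were Ttc14 (0.94), Amy1 (0.94), Pabpn1 (0.93), A330023F24Rik (0.92) and Fam193b (0.92), and the members ran from 0.39 for Tpi1 (rank 2515) to −0.62 for Eno1 (rank 11988). These are descriptions over libraries that share mice, lanes and scaling.

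Among the members, after subtraction of group means, Aldoa and Tpi1 correlated at 0.93, Pgk1 and Pgam1 at 0.84, Eno2 and Pkm at 0.81, Aldoa and Pkm at 0.72, Pgam1 and Eno1 at 0.72 and Eno1 and Ldha at 0.66, while Tpi1 and Pgk1 correlated at −0.65. Over the 45 pairs the median was 0.21 and 30 were positive. Within the hippocampus group of either genotype, Aldoa and Tpi1 were both highest in replicate 2, at 1550 and 1618 CPM for Aldoa and 391.5 and 414.3 CPM for Tpi1, and the mutant library of these had the lowest Pgk1 level of its group, 5.92 CPM.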

How the data were processed

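RNA from 3 brain regions of 3 WT and 3 Pcm1-/- mice was sequenced from KAPA stranded mRNA libraries. According to the study's methods, the authors trimmed reads with Trim Galore and cutadapt, aligned them with STAR to GRCm38 with Ensembl release 73 genes, kept reads with a single location and counted them per gene with HTSeq. The values used are these raw counts as deposited, 1 table per library; tool versions and the strand setting are not given in the sources used here. Rows of reads without a gene (8.98% to 11.6% without a feature and 1.58% to 1.79% ambiguous, as shares of the reads counted) were left out of totals and tests.

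Counts were tested with edgeR 4.0.16 in R 4.3.3 (TMM, quasi-likelihood F-test, two-sided, Benjamini-Hochberg over 17545 genes with at least 10 reads in any library, threshold 0.05). Genotypes were compared within a region (6 libraries), regions within a genotype (9 libraries), and the genotype effect between striatum and hippocampus by an interaction (12 libraries). SEs are those of the fitted log2 fold changes. The edgeR fits were checked on simulated counts with 200 genes changed. Of simulated log2 changes of 0.5 between genotypes, 63% were called in frontal cortex, 37% in striatum and 15% in hippocampus, and 6% in the interaction. False calls were 7.0%, 7.2%, 11.2% and 2.8% of the calls. Changes of this size or smaller could thus be missed. Alternatives were DESeq2 1.42.0, other scalings and filters, 1 fit of all libraries, blocks, lane, leaving out each library, and adding reads on annotated copies; adding copies in region contrasts, leaving Peli2 out of the copies, and the mouse block in the interaction were chosen after the data were seen. Symbols, exons, transcripts and copies came from GENCODE M21 (GRCm38), a later release of the same assembly; 36723 of 38561 genes matched a symbol. Copies were found with BLAST 2.17.0.

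The members and the gene lists were chosen with earlier results of these data known. All 10 members are named; of the other glycolysis genes the text names the expressed isozymes and, per list and contrast, up to 3 called genes with the largest log2 fold change, and for likeness to Gapdh the 5 genes with the highest correlation. Which library came from which mouse was taken from the submitters' sample names. After subtraction of group means, libraries of the same mouse correlated at 0.33 (WT) and 0.27 (Pcm1-/-) on average, so the mouse pairs the regions. Those of other mice correlated at −0.17 and −0.13, values below 0 that follow from subtracting a mean of 3 and add no evidence of their own. Same-numbered WT and mutant libraries correlated at 0.12, 0.61 and 0.28 in the hippocampus. Replicates are separate mice, and 3 per group limit the precision.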

Additional observations from a re-analysis of the deposited data

How the results depend on the processing

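Of the 0 members called between genotypes in striatum and hippocampus, none was gained under any alternative run, DESeq2 included. Over all genes, 306 were called between genotypes in frontal cortex, and 690 with DESeq2, 544 without a filter, 176 in 1 fit of 18 libraries and 29 with lane as covariate. In striatum 5 were called, and 488 with DESeq2, 65 without a filter and 54 in 1 fit. In hippocampus 3 were called, and 220 with DESeq2 and 205 in 1 fit. For the interaction DESeq2 called 27 where edgeR called 0. The lane covariate could not be run in the striatum, where lane and genotype coincide. Leaving out 1 library gave 11 (without KO replicate 1) to 825 (without WT replicate 3) genes in frontal cortex, with 27 and 54 without KO replicates 2 and 3 and 88 and 71 without WT replicates 1 and 2. It gave 2 (without WT replicate 2 or KO replicate 1) to 5 in striatum, 1 (without WT replicate 1 or 2 or KO replicate 1) to 11 (without KO replicate 3) in hippocampus and 0 to 1 for the interaction; the cause was not tested. Members called in WT striatum against frontal cortex were 3 (beside 41.5% of all genes), and 5 with DESeq2 (41.7%) and in 1 fit of 18 libraries (48.3%), and 1 to 2 without 1 library (33.5% to 37.4%). In WT hippocampus against frontal cortex they were 3 (29.8%), and 2 (without WT frontal cortex replicate 2) to 5 (without WT hippocampus replicate 3) without 1 library (21.2% to 29.5%). Gapdh is left out of these counts against frontal cortex. Members lower in mutant frontal cortex were 1, and 0 with copies added without Peli2, and 1 to 3 (without KO replicate 1) without 1 library.

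A replicate block (by number) gave 665 genes in frontal cortex, 3 in striatum and 9 in hippocampus, and called 0 members in the last 2. Same-numbered libraries correlated at 0.031, 0.37 and 0.32 in frontal cortex and at 0.28, −0.15 and −0.35 in striatum and were not taken as pairs there. Replicate 2 of both genotypes had reads on Y-linked genes in frontal cortex, and in striatum the WT numbers do not follow the mice, so whether WT and mutant mice pair in any other order was not tested. With the mouse as a block, members called were 5 in WT striatum (beside 48.1% of all genes) and 6 in WT hippocampus (37.0%) against frontal cortex, 4 for WT striatum against hippocampus (35.1%), and 6, 5 and 5 in the mutant contrasts (56.4%, 43.9% and 47.2%). The mouse block changed no member's call other than those of Pgk1, Pgam1, Eno1 and Gapdh given above. Eno1 in WT striatum against hippocampus was 0.039 with the number block and 0.010 with the mouse block, against −0.030 without.

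The following log2 differences changed sign. With copies added, Gapdh between genotypes was 0.057 in striatum, and without Peli2 0.019 in striatum and 0.065 in hippocampus. Its values against frontal cortex are given above. Pkm between genotypes in striatum was −0.0022 with DESeq2, −0.0023 with its size factors, −0.0065 without TMM, −0.0015 with filterByExpr and −0.0013 in 1 fit. Without TMM, Aldoa between genotypes in hippocampus was −0.0014, and in WT striatum against hippocampus Pgk1 was −0.036 and Pgam1 −0.032. Leaving out 1 library gave ranges that crossed 0. Between genotypes in frontal cortex they were Aldoa −0.0077 to 0.045 and Tpi1 −0.026 to 0.055, and in striatum Gapdh −0.21 to 0.16, Aldoa −0.022 to 0.013, Pgk1 −0.19 to 0.16, Eno2 −0.0061 to 0.096 and Pkm −0.020 to 0.016. In hippocampus they were Aldoa −0.059 to 0.12, Tpi1 −0.19 to 0.031, Pgam1 −0.036 to 0.38 and Pkm −0.0019 to 0.063. Between WT striatum and frontal cortex they were Eno2 −0.028 to 0.073 and Pkm −0.0056 to 0.027, and between WT hippocampus and frontal cortex Aldoa −0.013 to 0.14. Between WT striatum and hippocampus they were Pgk1 −0.19 to 0.33, Pgam1 −0.21 to 0.23 and Eno1 −0.29 to 0.19. In mutants, Eno2 in striatum against frontal cortex was −0.011 to 0.025, Gapdh in hippocampus against frontal cortex −0.47 to 0.024, and in striatum against hippocampus Pgam1 was −0.11 to 0.12 and Eno1 −0.099 to 0.027.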

Other observations

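Some genes that take pyruvate further differed between regions in WT mice by the same edgeR fits. Of 14 genes of pyruvate entry into mitochondria, 2 were higher and 5 lower in striatum than in frontal cortex, where 41.5% of all genes were called, and 2 were higher and 3 lower in hippocampus, where 29.8% were. Pdk1, a kinase that switches off pyruvate dehydrogenase, had 34.8 ± 4.65 CPM in striatum, 49.1 ± 4.16 in hippocampus and 76.3 ± 11.0 in frontal cortex (SD, n = 3 each). It differed from frontal cortex by −1.13 (adjusted p = 6.23e-05) and −0.64 (adjusted p = 0.00392 in edgeR). Pdp1, a phosphatase that switches the complex on, was lower in hippocampus than in frontal cortex, at −0.84 (adjusted p = 0.00433 in edgeR) and the mitochondrial pyruvate carrier gene Mpc1 too, at −0.73 (adjusted p = 0.00598 in edgeR). Of 16 TCA cycle genes, 3 were higher and 1 lower in striatum, and none was called in hippocampus.

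Among 9 glucose and lactate transporters, 3 were higher and 2 lower in each region than in frontal cortex, beside 41.5% of all genes in striatum and 29.8% in hippocampus. Slc2a3, the neuronal glucose transporter, had 98.7 ± 11.7 CPM in hippocampus and 150.2 ± 9.72 in frontal cortex (−0.61, adjusted p = 0.00122 in edgeR). Slc16a8, a monocarboxylate transporter, was higher by 2.52 in striatum and 2.95 in hippocampus (adjusted p = 0.0276 and 0.0181 in edgeR), and the choroid plexus markers were high in 1 striatum and all 3 hippocampus libraries of WT mice; their part was not tested. Tigar and Pfkfb4, 2 of 5 genes that set fructose 2,6-bisphosphate, were lower in both regions, Tigar at −0.92 in striatum (adjusted p = 4.19e-06 in edgeR).

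Of 16 hypoxia response genes, 5 were higher and 1 lower in striatum than in frontal cortex, and 3 were higher and 5 lower in hippocampus, beside the same shares of all genes. Car9, a carbonic anhydrase, was higher by 4.57 and 3.39, Ndrg1 by 1.44 and 1.15, and Egln3, a prolyl hydroxylase, was lower, at −3.09 and −1.27 (adjusted p of 0.0015 or less for each in edgeR). Ldha, a known target of the same pathway, was lower in both regions, and a part of the pathway in its level was not tested. All 8 oligodendrocyte markers were higher in both regions than in frontal cortex, and their part in these values was not tested either.

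Reference genes differed in how far they moved with the mouse. Hprt, which like Pgk1 lies on the X chromosome, had 9 to 20 reads in all 6 libraries of Pcm1-/- mice of replicates 1 and 2. It had 1627 to 2124 reads in the 3 libraries of the third mutant mouse and 1047 to 3175 in WT libraries. Pgk1 did not show this split, at 12.8, 12.5 and 11.3 CPM in the 3 mutant mice in frontal cortex. What sequence the mutant mice keep from the stem cell line, and its part in the Hprt reads, was not tested.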
